A study of Homo sapiens with 2 samples.

Results

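Integrins are receptors made of an alpha and a beta chain that join the extracellular matrix, or another cell's surface, to the actin skeleton. The 10 genes described here encode 7 alpha chains (ITGA2, ITGA3, ITGA4, ITGA5, ITGA6, ITGAV and ITGAE) and 3 beta chains (ITGB1, ITGB5 and ITGB8). They were taken by matching Ensembl gene IDs, with the version removed, to these symbols, and all 10 were found among 57820 gene IDs. The human family used here has 26 chains, 18 alpha and 8 beta. Both samples were HEK293T, an immortal line from human embryonic kidney that carries the SV40 large T antigen. The SRα siRNA library is from cells treated with an siRNA against SRα and the control siRNA library from cells treated with a control siRNA. Each condition has 1 library, and no other treatment, time or genotype is stated. SRα, encoded by SRPRA, is the subunit of the signal recognition particle (SRP) receptor that takes SRP-bound ribosomes over at the endoplasmic reticulum (ER).

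Each integrin chain is a membrane protein with an N-terminal signal sequence, 1 membrane-spanning segment and, in most chains, a short cytoplasmic tail. The chains are made at the ER, where an alpha and a beta chain pair before they leave for the surface, and beta 1 chains without a partner are held back. The beta chain ITGB1 has the most partners. The alpha chain largely sets which ligand is bound. ITGA2 with ITGB1 binds collagen, ITGA3 and ITGA6 with ITGB1 bind laminins, ITGA5 with ITGB1 binds fibronectin, and ITGA4 with ITGB1 binds VCAM1 and fibronectin.

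The motif that joins the alpha chains as a family is shown first, as the DNA that codes for it. Tails of alpha chains begin, just inside the membrane, with the residues GFFKR, which contact the beta chain. The stretches below are from GENCODE 29 transcripts (GRCh38), 5′ to 3′ on the coding strand, with the 15 bases of the motif in capitals.
ITGA2: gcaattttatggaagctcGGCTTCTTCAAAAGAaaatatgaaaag
ITGA4: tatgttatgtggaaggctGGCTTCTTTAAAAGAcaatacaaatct
ITGA5: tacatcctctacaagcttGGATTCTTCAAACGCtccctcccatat
ITGA6: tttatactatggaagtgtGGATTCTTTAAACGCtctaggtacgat
ITGAE: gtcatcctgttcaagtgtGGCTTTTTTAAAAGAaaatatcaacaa
ITGAV: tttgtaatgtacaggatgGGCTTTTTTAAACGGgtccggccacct
These 6 motifs code for the same residues in 6 different spellings, with 10 of 15 bases alike in all of them. They came from the longest complete coding sequence of each gene and began 25 to 52 residues before the protein's end.

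ITGA3 is given apart because its longest coding sequence lacks the motif and its 2 complete coding transcripts end in different tails. The longer one, of 1066 residues, has another residue in place of the glycine, and the one of 1051 residues has the motif. Capitals mark the same 15 bases in both.
ITGA3, 1066 residues: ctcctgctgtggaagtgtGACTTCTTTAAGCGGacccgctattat
ITGA3, 1051 residues: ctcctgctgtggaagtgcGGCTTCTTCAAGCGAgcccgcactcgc
Reads were counted per gene, so the values below do not separate these transcripts. Nor do they separate the 2 of ITGA4, of which 1 holds the motif, or the 5 of ITGA6, all of which hold it.

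Beta chain tails carry NPxY motifs, which bind talin and kindlins, the proteins that switch integrins on. ITGB1 had 2 matches in its tail and ITGB5 had 1, shown with the 12 coding bases in capitals. ITGB8 had 0 in either of its 2 complete coding transcripts.
ITGB1, first: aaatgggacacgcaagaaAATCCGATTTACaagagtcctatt
ITGB1, second: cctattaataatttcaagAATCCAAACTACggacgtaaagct
ITGB5: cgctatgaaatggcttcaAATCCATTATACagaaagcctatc

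The translated proteins share the layout that brings them to the ER. The alpha chains had 1032 to 1181 residues and the beta chains 769 to 801. In all 10 the most hydrophobic window of 12 residues among the first 40 averaged 1.98 to 2.74 on the Kyte-Doolittle scale, where higher is more hydrophobic. The most hydrophobic window of 19 residues among the last 120 averaged 2.79 to 3.39, and 29 to 66 residues followed it. Cysteine made up 7.02% to 7.26% of the residues of the 3 beta chains and 1.81% to 2.42% of those of the 7 alpha chains. Identity over aligned residues ran from 26.8% (ITGA6 with ITGAE) to 47.7% (ITGA5 with ITGAV) among alpha chains, and from 37.9% to 44.0% among beta chains.

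Reads counted in genes came to 3896721 for the SRα siRNA library and 2445200 for the control siRNA library. SRPRA had 449 reads in the SRα siRNA library and 507 in the control siRNA library, a ratio of 0.570 after scaling (95% counting interval 0.501 to 0.648). Of the filament genes HEK293T is known for, VIM, NEFM, INA, KRT8 and KRT18 summed to 561 CPM (read counts scaled to library size with TMM factors) in the SRα siRNA library and 459 CPM in the control siRNA library. NEFL was not analysed here. PTPRC, CD3E and CD14 of leukocytes, GP9 and PF4 of platelets, and CDH5 and TEK of endothelium had 0 reads in both libraries. The 4 fibroblast genes COL1A1, COL3A1, DCN and LUM summed to 17.2 and 17.8 CPM in the SRα siRNA and control siRNA libraries. With 1 library per group there is no replicate check and no test between conditions, and every interval below covers counting error only. Reads without molecular identifiers are not independent molecules, so the intervals may be too narrow even for that.

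In both libraries the beta 1 chain ITGB1 stood highest, above the RGD-binding alpha chain ITGAV and the laminin-binding alpha chain ITGA6. Levels are compared between genes in RPKM, the CPM divided by the kilobases of exon. ITGB1 had a level of 28.7 RPKM in the SRα siRNA library (interval 26.6 to 31.0, from 664 reads) and 29.7 RPKM in the control siRNA library (27.0 to 32.6, from 442 reads). Among protein-coding genes that average 1 CPM or more, its level ranked 1634 from the highest. ITGAV had a level of 13.1 RPKM in the SRα siRNA library (415 reads) and 13.6 RPKM in the control siRNA library (277 reads). ITGA6 had a level of 11.3 RPKM in the SRα siRNA library (284 reads) and 9.40 RPKM in the control siRNA library (152 reads). ITGB1 was thus 2.19 times ITGAV in the SRα siRNA library (1.93 to 2.48) and 2.18 times in the control siRNA library (1.87 to 2.54). ITGAV over ITGA6 was 1.16 in the SRα siRNA library (0.997 to 1.36), not separated, and 1.45 in the control siRNA library (1.19 to 1.78).

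A middle group of chains followed. ITGAE, the alpha chain that on T cells of epithelia binds E-cadherin, had a level of 5.50 RPKM in the SRα siRNA library (141 reads) and 5.40 RPKM in the control siRNA library (89 reads). ITGA4, best known from leukocytes, had a level of 4.37 RPKM in the SRα siRNA library (133 reads) and 4.50 RPKM in the control siRNA library (88 reads). These alpha chains were not separated from each other beyond counting error in either library. ITGA5, the fibronectin receptor chain, had a level of 2.92 RPKM in the SRα siRNA library (85 reads) and 3.36 RPKM in the control siRNA library (63 reads). ITGB5, which pairs with ITGAV alone, had a level of 2.74 RPKM in the SRα siRNA library (68 reads) and 3.70 RPKM in the control siRNA library (59 reads). ITGA2, the collagen receptor chain, had a level of 2.83 RPKM in the SRα siRNA library (86 reads) and 1.53 RPKM in the control siRNA library (30 reads). Its place beside ITGA5 differed between the libraries. In the SRα siRNA library it was not separated from ITGA5 (ITGA5 over ITGA2 1.03, 0.755 to 1.41), while in the control siRNA library ITGA5 stood 2.19 times above it (1.40 to 3.51).

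The lowest levels belonged to ITGA3 and ITGB8. ITGA3 had a level of 0.636 RPKM in the SRα siRNA library (24 reads) and 0.536 RPKM in the control siRNA library (13 reads). ITGB8, which with ITGAV binds and activates latent TGF-β, had a level of 0.223 RPKM in the SRα siRNA library (13 reads) and 0.133 RPKM in the control siRNA library (5 reads). Of the 9 neighbouring pairs in this order, 5 were separated beyond counting error in the SRα siRNA library and 6 in the control siRNA library. Per coding length in place of exon length, 5 of 9 were separated in each library, ITGB1, ITGAV and ITGA6 again led, ITGAV was separated from ITGA6 in the SRα siRNA library as well (1.58, 1.35 to 1.84), and ITGA3 and ITGB8, whose exons span 15156 bases against 2307 coding bases, were no longer separated.

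**Figure D1:**
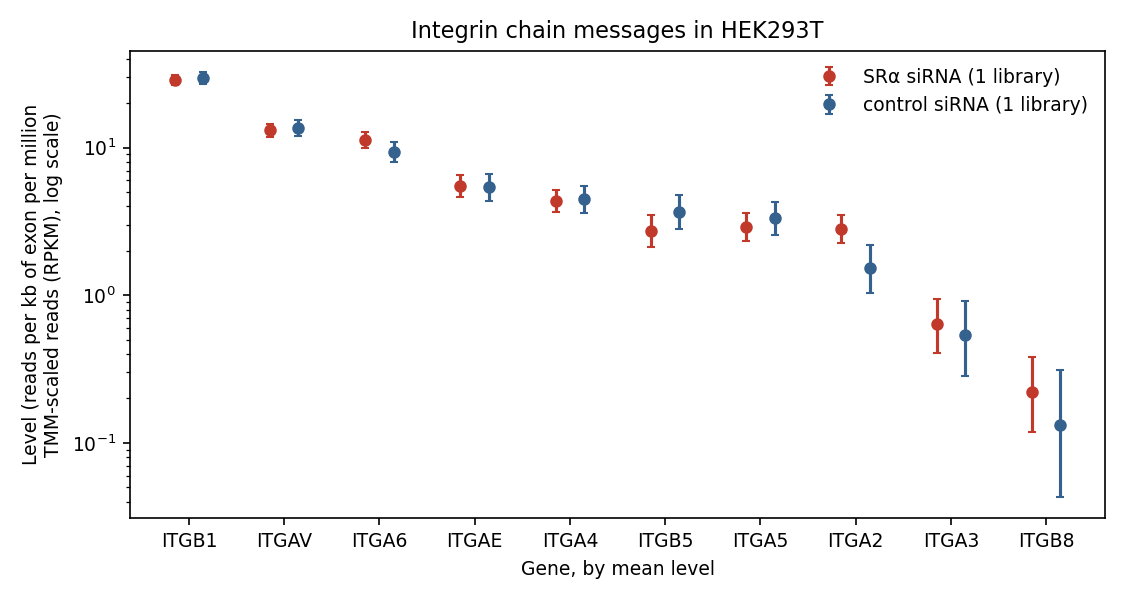
Level of each of the 10 integrin chain messages in RPKM, on a log axis, in the SRα siRNA library (red) and the control siRNA library (blue). Points are single libraries and bars are exact 95% Poisson intervals; ITGB1 stands highest in both at 28.7 and 29.7, and ITGB8 lowest at 0.223 and 0.133.

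The comparison asks whether these messages stand at other levels once SRα is depleted. ITGA2 was higher in the SRα siRNA library, ITGB1 and ITGAV lay within narrow intervals around equal levels, and the others had wider intervals that held 0. In bulk RNA, fewer cells with a message and less of it per cell cannot be told apart. ITGA2 had 22.4 CPM in the SRα siRNA library and 12.1 CPM in the control siRNA library. On the log2 scale SRα siRNA over control siRNA came to 0.87, with a 95% counting interval of 0.27 to 1.53. The ratio itself was 1.83 (1.20 to 2.90). By log2 ratio it ranked 62 from the highest of 10104 genes that average 5 CPM or more, and its interval takes no account of that choice. Among the 10 members it alone had an interval above 0, against 5.46% of the 12747 measured genes, those that average 1 CPM or more. No member had an interval below 0, against 3.39% of those genes.

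Counted by size, 2 of 10 members (ITGA2 and ITGB8) exceeded 1.5-fold in the direction of the SRα siRNA library, against 6.55% of all measured genes. For ITGB8, at 3.38 CPM in the SRα siRNA library and 2.02 CPM in the control siRNA library, the log2 ratio of 0.70 came from 13 and 5 reads and its interval ran from -0.84 to 2.58. At a mean of at least 5 CPM, which ITGB8 does not reach, 1 of 9 members was 1.5-fold higher, against 2.48% of genes. None of the 10 members was 1.5-fold lower (6.97% of all measured genes), 2-fold higher (2.15%) or 2-fold lower (2.57%). With 10 members these percentages amount to fewer than 1 gene each, so the counts say little about the group. The median log2 ratio of the members was -0.01, beside 0.01 over all measured genes, and 5 of 10 had a ratio below 0, beside 48.6% of all measured genes.

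The most-read chains gave the tightest values. ITGB1 had a log2 ratio of -0.05 (-0.22 to 0.13), from 173 CPM in the SRα siRNA library and 178 CPM in the control siRNA library. ITGAV had a log2 ratio of -0.05 (-0.28 to 0.17), from 108 CPM in the SRα siRNA library and 112 CPM in the control siRNA library. For both, a difference of 1.5-fold in either direction lay outside the counting interval. ITGA6 had a log2 ratio of 0.27 (-0.02 to 0.56), from 73.8 CPM in the SRα siRNA library and 61.4 CPM in the control siRNA library.

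The remaining members had intervals that held 0. ITGAE had a log2 ratio of 0.03 (-0.37 to 0.43), and its sign turned when library totals replaced the TMM factors (-0.01). ITGA4 had -0.04 (-0.44 to 0.37), ITGA5 had -0.20 (-0.69 to 0.29) and ITGA3 had 0.24 (-0.78 to 1.35), all as log2 ratios. ITGB5 had the lowest log2 ratio of the members, -0.43 (-0.96 to 0.10), from 17.7 CPM in the SRα siRNA library and 23.8 CPM in the control siRNA library. No difference was detectable for these chains at this depth.

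**Figure D2:**
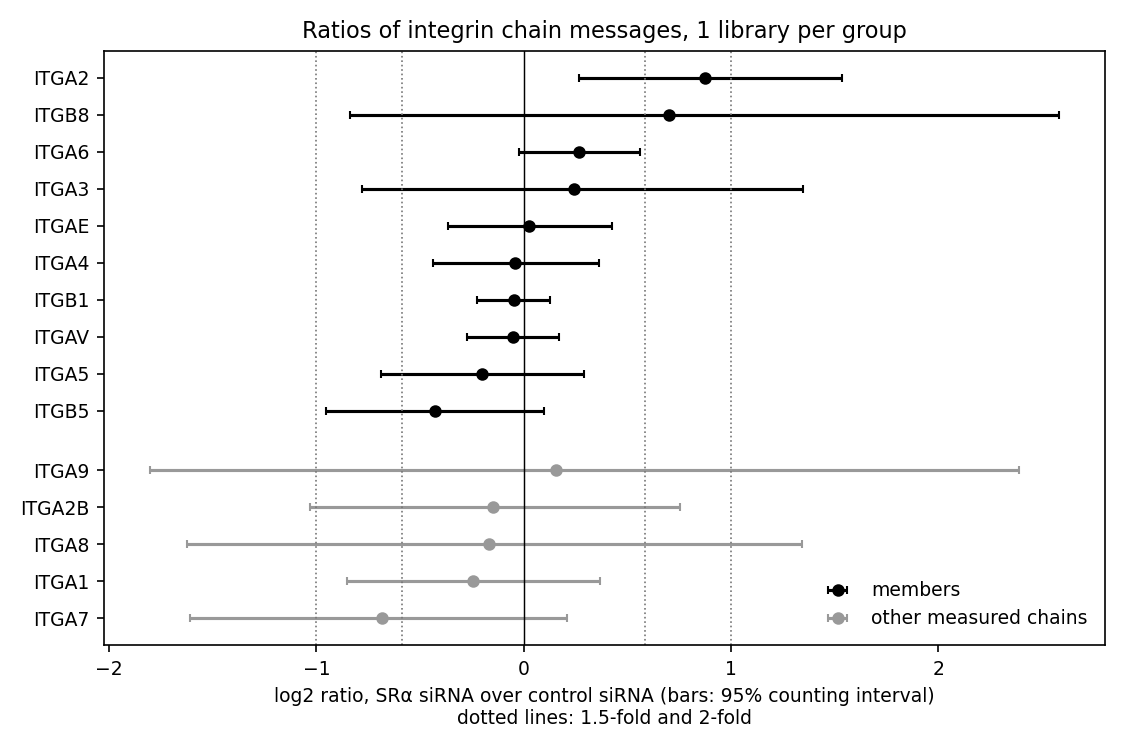
Log2 ratio, SRα siRNA over control siRNA, of the 10 members (black) and of the 5 other measured integrin chains (grey), with 95% counting intervals and dotted lines at 1.5-fold and 2-fold. ITGA2 at 0.87 is the one chain drawn whose interval, 0.27 to 1.53, does not reach 0.

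Over all measured genes the median log2 ratio was 0.06 at the lowest GC content and -0.08 at the highest, taken in 10 groups of genes by GC. The longest transcript of ITGA2 has 40.2% GC. In the measured genes of like GC (38.3% to 40.6%) the median log2 ratio was 0.06 and 6.43% of genes were at least 1.5-fold higher. ITGB1 (39.98% GC) lies in that range and ITGAV (38.3% GC) just under it, and neither log2 ratio was above 0. ITGB8 (37.8% GC), also under that range, had a log2 ratio of 0.70 from 13 and 5 reads. Above the range, ITGA6 (42.9% GC) had a log2 ratio of 0.27 and ITGA4 (44.1% GC) one of -0.04. Of the 4 members above 54% GC, ITGA5 and ITGB5 had log2 ratios below 0, and ITGA3 and ITGAE had log2 ratios above 0. The part of GC in the value of ITGA2 was not tested.

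**Figure D3:**
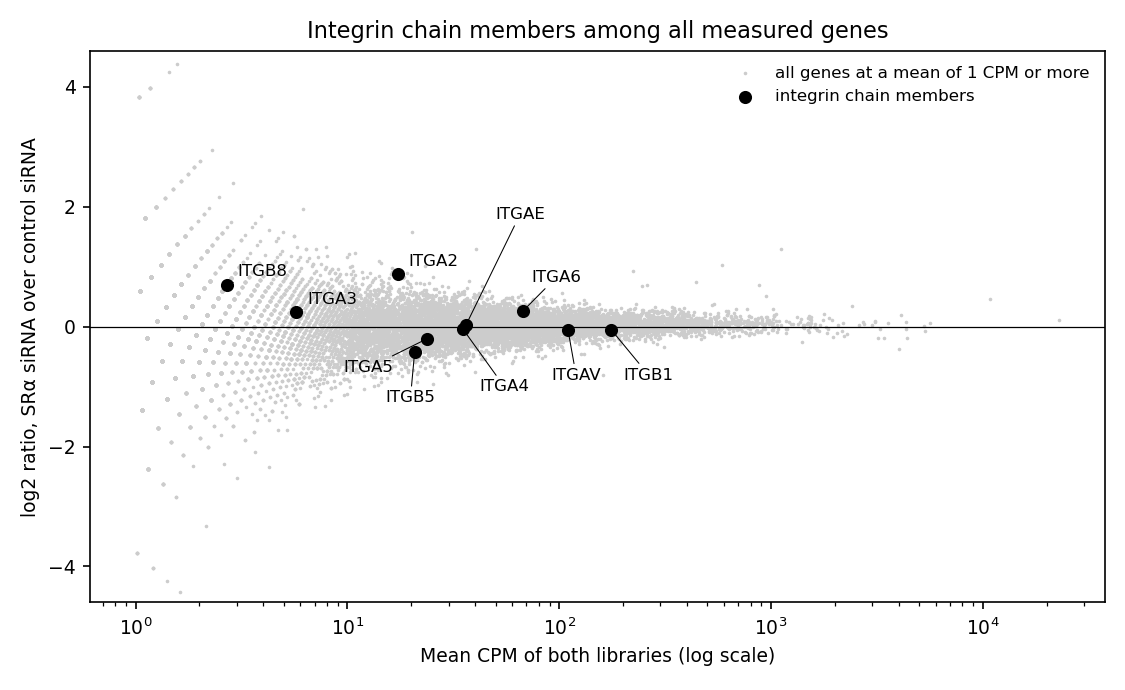
Log2 ratio against mean CPM (log axis) for all 12747 measured genes (grey) and the 10 members (black, labelled). ITGA2 at 0.87 lies among the higher genes of its depth, and ITGB1, ITGAV, ITGA4 and ITGAE lie between -0.05 and 0.03.

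The alpha chains can also be compared within each library, where no scaling between libraries enters. Together the 7 alpha chains had 1168 reads in the SRα siRNA library and 712 in the control siRNA library. ITGAV took 35.5% of them in the SRα siRNA library (exact Clopper-Pearson interval 32.8% to 38.4%) and 38.9% in the control siRNA library (35.3% to 42.6%). ITGA6 took 24.3% in the SRα siRNA library (21.9% to 26.9%) and 21.3% in the control siRNA library (18.4% to 24.5%). ITGA2 took 7.36% in the SRα siRNA library (5.93% to 9.01%) and 4.21% in the control siRNA library (2.86% to 5.96%). The intervals of ITGA2 overlapped by a narrow margin, and those of ITGAV and ITGA6 overlapped widely.

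The summed reads of the alpha chains had a log2 ratio of 0.08 (-0.06 to 0.21), or 0.03 (-0.11 to 0.17) without ITGA2. The 3 beta chains, with 745 reads in the SRα siRNA library and 506 in the control siRNA library, had a log2 ratio of -0.08 (-0.24 to 0.09). ITGB1 made up 89.1% of the beta chain reads in the SRα siRNA library (86.7% to 91.3%) and 87.4% in the control siRNA library (84.1% to 90.1%).

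**Figure D4:**
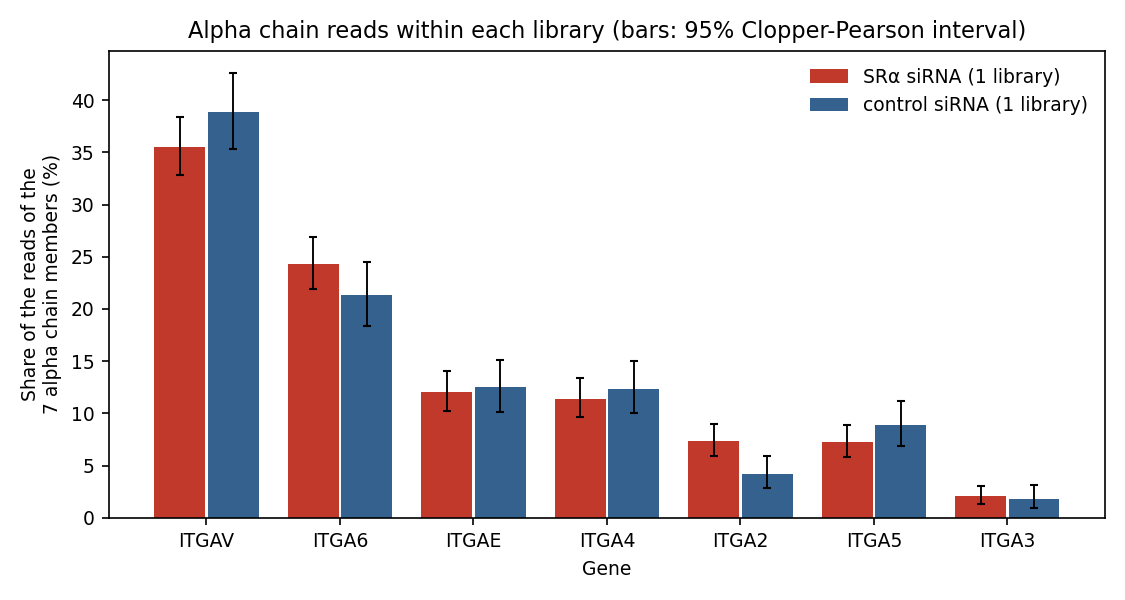
Share of the reads of the 7 alpha chain members that each gene took, in percent, in the SRα siRNA library (red) and the control siRNA library (blue), with exact 95% Clopper-Pearson intervals. ITGAV leads in both at 35.5% and 38.9%, and ITGA2 stands at 7.36% and 4.21%.

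Which receptors these messages allow was read from the 24 known alpha and beta pairs of human integrins. A pair was allowed where both chains had a mean of at least 1 CPM. A message does not show a protein, and a pair also needs both chains in 1 cell, which a bulk library does not show. By this rule 12 of 24 pairs were allowed, and 10 of these use ITGB1. The 8 pairs made of members only were all allowed. They are ITGB1 with ITGA2, ITGA3, ITGA4, ITGA5, ITGA6 or ITGAV, and ITGAV with ITGB5 or ITGB8. The other 4 were ITGB1 with ITGA1, ITGA7, ITGA8 or ITGA9.

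The pairs differed widely in the level of the chain with less message. In ITGAV with ITGB1 that level was 13.1 RPKM in the SRα siRNA library and 13.6 RPKM in the control siRNA library, and in ITGA6 with ITGB1 it was 11.3 RPKM in the SRα siRNA library and 9.40 RPKM in the control siRNA library. ITGAV with ITGB5 stood at 2.74 RPKM in the SRα siRNA library and 3.70 RPKM in the control siRNA library, set by ITGB5. ITGAV with ITGB8 stood at 0.223 RPKM in the SRα siRNA library and 0.133 RPKM in the control siRNA library, set by ITGB8. In all 10 pairs with ITGB1 the alpha chain had the lower level. The levels of the 12 alpha chains known to pair with ITGB1 summed to 1.30 times that of ITGB1 in the SRα siRNA library and 1.21 times in the control siRNA library.

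**Figure D5:**
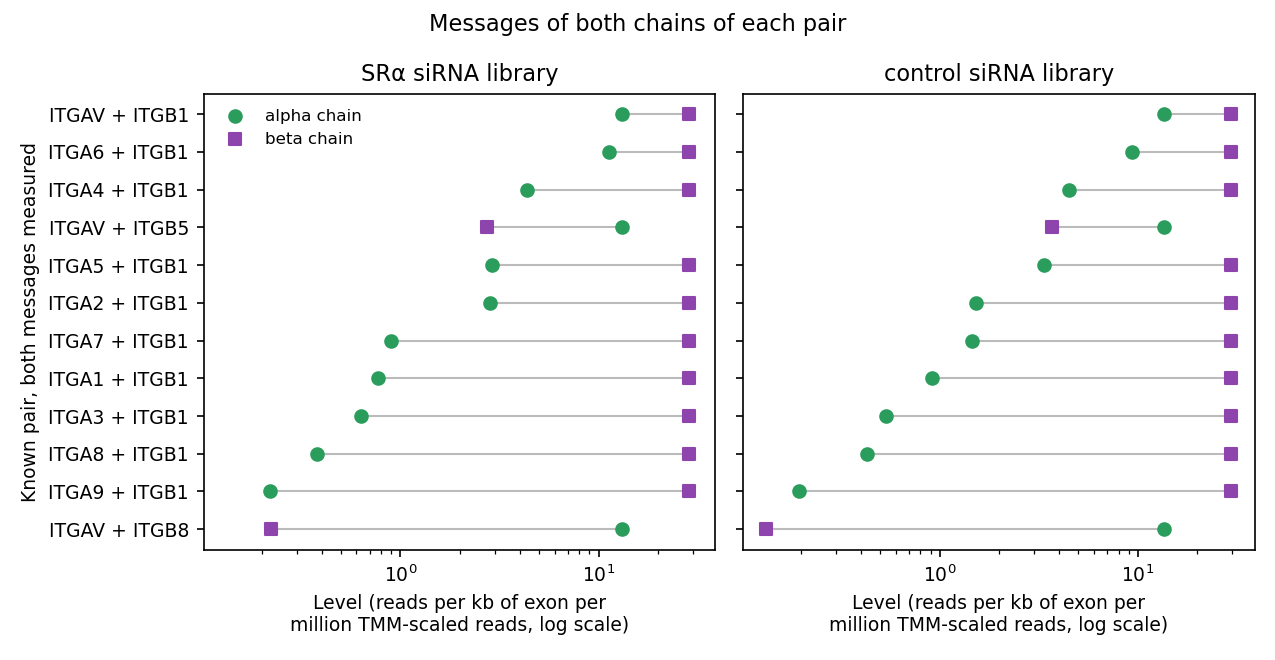
Levels of the alpha chain (green circles) and the beta chain (purple squares) of the 12 allowed pairs, in RPKM on a log axis, in the SRα siRNA library (left) and the control siRNA library (right). Pairs are ordered by the mean over both libraries of the level of the lower chain, from ITGAV with ITGB1 to ITGAV with ITGB8, and ITGB1 at 28.7 and 29.7 is the higher chain of every pair it is in.

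The other 12 pairs lacked a measured chain. ITGAE pairs with ITGB7 only, and ITGB7 had 0 reads in both libraries, which allows up to 0.780 CPM in the SRα siRNA library and 1.21 CPM in the control siRNA library (3 reads each). ITGAE thus had counted reads and its known partner did not. In GENCODE 29, 42.1% of the exon bases of ITGB7 overlap ZNF740 on the opposite strand. ZNF740 had 57 reads in the SRα siRNA library and 41 in the control siRNA library. If counting ignored strand, reads in this overlap may count for neither gene. The message of ITGB7 could then lie above the limits just given, which was not tested. The exons of ITGAE overlap those of genes on the opposite strand over 7.59% of their bases, most of it HASPIN, a kinase gene inside ITGAE that had 92 reads in the SRα siRNA library and 75 in the control siRNA library. The use of strand in counting is not given in the sources used here. Reads of ITGAE in that stretch may therefore have been counted for it or for neither gene.

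ITGB3 and ITGB6, partners of ITGAV, also had 0 reads in both libraries. Over 51.6% of its exon bases ITGB3 overlaps a gene on the same strand (ENSG00000259753, also at 0 reads in both), where a read may count for neither gene. Its message could therefore be undercounted, and the part of this overlap was not tested. ITGB4, the partner of ITGA6 in hemidesmosomes, had 2 reads in each library. The leukocyte chain ITGB2 had 1 read in the SRα siRNA library and 0 in the control siRNA library.

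Of the 16 chains outside the 10 members, 5 had a mean of at least 1 CPM and 8 had 0 reads in both libraries. ITGA1, a second collagen receptor chain, had 14.3 CPM in the SRα siRNA library and 17.0 CPM in the control siRNA library, with a log2 ratio of -0.24 (-0.85 to 0.37). ITGA2B, the platelet alpha chain that pairs with ITGB3, had 28 reads in the SRα siRNA library and 20 in the control siRNA library, with 0 reads of ITGB3 beside it. ITGA7, a laminin receptor chain of muscle, had 22 reads in the SRα siRNA library and 23 in the control siRNA library and a log2 ratio of -0.68 (-1.61 to 0.21). ITGA8 and ITGA9 had 4 to 11 reads in each library.

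Of 30 activators and adaptors, 25 were measured, and their median log2 ratio was 0.03. In this list 1 was 1.5-fold higher and 1 was 1.5-fold lower, against 6.55% and 6.97% of all measured genes, and 0 of 25 intervals lay above or below 0. The lower one was the tensin TNS1, also past 2-fold, at -1.46 (-4.26 to 0.59) from 3 reads in the SRα siRNA library and 6 in the control siRNA library. The higher one was TLN2, a talin that binds beta tails, with 50 reads in the SRα siRNA library, 21 in the control siRNA library and a log2 ratio of 0.61 (-0.15 to 1.43). The lowest at a mean of at least 5 CPM was the small GTPase RAP1B at -0.20 (-0.68 to 0.28). Talin 1 (TLN1), at -0.04 (-0.20 to 0.13), and the kindlin FERMT2, at 0.03 (-0.16 to 0.23), were both read well. The blood cell kindlin FERMT3 had 1 read in the SRα siRNA library and 0 in the control siRNA library.

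Of 26 ligands, 21 were measured, with a median log2 ratio of -0.10 and 15 of 21 below 0, beside 48.6% of all measured genes. Of the 21, 2 were 1.5-fold higher and 4 were 1.5-fold lower, 2 of these 2-fold lower, against 6.55%, 6.97% and 2.57% of all measured genes. Most of these calls rest on few reads. Among the lower ones, TGFB1 had 6 reads in the SRα siRNA library and 10 in the control siRNA library, and NPNT had 9 in each. Among the higher ones, LAMA2 had 11 and 4. At a mean of at least 5 CPM, FBN1 alone was 1.5-fold higher and LAMB2 alone 1.5-fold lower, against 2.48% and 2.55% of genes. Intervals lay below 0 for 4 of 21 (MADCAM1, LAMB2, LAMB1 and LAMC1), against 3.39%, and above 0 for 1, FBN1, against 5.46%. MADCAM1, a ligand of ITGA4 with ITGB7, had 0 reads in the SRα siRNA library and 6 in the control siRNA library. The fibrillin FBN1 had the highest log2 ratio at a mean of at least 5 CPM, 0.84 (0.17 to 1.57), and the laminin chain LAMB2 the lowest, -0.78 (-1.23 to -0.34). The laminin beta 1 chain LAMB1 had a log2 ratio of -0.21 (-0.36 to -0.06) and the gamma 1 chain LAMC1 one of -0.10 (-0.20 to -0.01), both parts of ligands of ITGA3 and ITGA6. The collagen IV chains COL4A1 and COL4A2 had log2 ratios of -0.02 (-0.35 to 0.31) and 0.10 (-0.10 to 0.31). Vitronectin (VTN) and VCAM1, ligands of ITGAV and ITGA4, had 0 reads in both libraries. Fibronectin (FN1) had 52.0 CPM in the SRα siRNA library and 59.4 CPM in the control siRNA library.

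Of 22 genes for the maturation and traffic of integrins, 19 were measured, with a median log2 ratio of -0.08. Of these, 0 were 1.5-fold higher and 0 were 1.5-fold lower, against 6.55% and 6.97% of all measured genes. The intervals of 6 of 19 (SNX17, CD9, HSPA5, CD81, CALR and HSP90B1) lay below 0, against 3.39% of all measured genes, and 0 lay above 0, against 5.46%. The interval of HSP90B1 ended at -0.001, while DESeq2 size factors raised the log2 ratios of the members by 0.005. Its place among the 6 thus depends on the scaling. The ER chaperones HSPA5 (BiP), CALR and HSP90B1 had 12256, 19854 and 16449 reads in the SRα siRNA library, so that small differences leave 0 outside their intervals, and their log2 ratios were -0.19, -0.08 and -0.04. CD9 and CD81, tetraspanins that bind integrins, had log2 ratios of -0.29 (-0.56 to -0.02) and -0.13 (-0.22 to -0.03). FURIN, the protease that cuts several alpha chains, had a log2 ratio of -0.03 (-0.58 to 0.53). The lowest at a mean of at least 5 CPM was SNX17, which returns beta 1 integrins to the surface, at -0.58 (-0.88 to -0.28), with 48.6 CPM in the SRα siRNA library and 72.7 CPM in the control siRNA library. The highest was RAB4A, a GTPase of recycling endosomes, at 0.20 (-0.26 to 0.66).

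The promoter of ITGA2 is shown because ITGA2 had the highest log2 ratio of the members. The window is chr5:52989102-52989325 (GRCh38.p14, plus strand, from the RefSeq promoter table), and it ends before the first base of the gene in GENCODE 29. Capitals mark GGGCGG, the GC box that factors of the Sp family bind.
ITGA2: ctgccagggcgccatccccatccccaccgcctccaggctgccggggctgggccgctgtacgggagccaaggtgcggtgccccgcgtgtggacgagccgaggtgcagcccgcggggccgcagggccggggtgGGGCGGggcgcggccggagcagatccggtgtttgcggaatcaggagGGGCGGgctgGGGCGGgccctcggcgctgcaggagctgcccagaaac
The window held 3 matches to GGGCGG and 0 to its reverse complement CCGCCC, and 77.2% of its 224 bases were G or C. Of 35116 promoters in the table, 39.4% held at least 1 match on either strand in their first 224 bases and 11.3% held at least 3. Among the 9 members with an entry, 6 had at least 1 match at 1 or more of their starts, and ITGA4, ITGAE and ITGAV had 0. ITGA6 and ITGB1 also reached 3 matches, each with 0 at another start. A match describes these letters only.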

How the data were processed

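RNA was extracted with TRIzol and sequenced from TruSeq Stranded mRNA libraries, per the labels' protocols. What the authors deposited are raw counts of reads for each Ensembl gene ID, not normalized. The submitters' processing notes name cutadapt, STAR 2.5.2b and the build hg19. Which program counted reads, with which annotation and whether by strand, is not given in the sources used here. The 5 closing lines of each file name no gene and were left out of library sizes. Of uniquely aligned reads, 7.49% in the SRα siRNA and 7.23% in the control siRNA library lay in no gene, and 4.58% and 4.67% matched several. Alignments that were not unique made up 76.5% and 79.6% of entries, so reads shared with near-identical copies are lost.

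Libraries were scaled by edgeR 4.0.16 TMM factors (R 4.3.3). Log2 ratios use a prior count of 0.5 scaled to depth. Intervals are 95% exact binomial for ratios and exact Poisson for levels. Genes that average 1 CPM or more were called measured. Symbols matched 51996 IDs. Exon and coding length and GC came from GENCODE 29 by gene ID alone, and no hg19 coordinates are given. Identity used Biopython 1.88 (BLOSUM62). The ratios and their intervals were tried on simulated Poisson counts with planted changes at the same library sizes. Such counts hold only the error that the intervals assume, so the trial cannot show how they fare between replicates. Members, gene lists and known pairs were chosen with earlier results of these data known. Named genes are the members, other chains at 1 CPM or more, and in each list those 1.5-fold apart and the extremes at 5 CPM or more. TNS1, FERMT2, TLN1, FERMT3, FURIN, CD9, CD81 and the ER chaperones were chosen for their role after values were seen, as were unmeasured chains. So were the ligands named beside FBN1, LAMB2, LAMA2, TGFB1 and NPNT. LAMA2, TGFB1 and NPNT were named after values were seen because they were 1.5-fold apart below 5 CPM. Alternatives were DESeq2 1.42.0 size factors, upper quartile factors, library totals, totals without mitochondrially encoded and the 10 most-read genes, a prior count of 2, other filters and coding length.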

Additional observations from a re-analysis of the deposited data

How the results depend on the processing

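The log2 ratios of the 10 members under 5 other scalings or priors gave 50 values, all inside the counting interval of the reported one. The 2 changes of sign both belonged to ITGAE, and no scaling moved the median of all genes by over 0.1. ITGA2 and ITGB8 were the members at least 1.5-fold higher, and with a mean of at least 5 CPM required the count was 1, since ITGB8 is then left out. Without a filter the count was 2, beside 19.5% of genes. The 12 allowed pairs became 13 when 1 read of each chain in both libraries was asked for, which adds ITGA6 with ITGB4, and 9 at a mean of at least 5 CPM. No paired analysis was possible because each group has 1 library, and for the same reason no replicate could be left out. Depth limits ITGA3 and ITGB8 most, with 5 to 24 reads per library.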

Other observations

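ITGA1 and ITGA2, both collagen receptor chains, lie next to each other on chromosome 5, with PELO, a ribosome rescue factor, inside ITGA1 and no other protein-coding gene between them in the RefSeq table. Their values ran apart. ITGA2 had a log2 ratio of 0.87 (0.27 to 1.53), PELO 0.06 (-0.23 to 0.36) and ITGA1 -0.24 (-0.85 to 0.37). The intervals of ITGA2 and ITGA1 overlap, and the difference between them was not tested. Exons of ITGA1 overlap those of other genes over 6.39% of their bases, PELO among them, and exons of ITGA2 overlap those of no other gene.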
